A study of Caenorhabditis elegans with 24 samples.

Results

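Fatty acids are burned in a series of enzymatic steps, and 61 genes for these steps were followed here in C. elegans. They were chosen by name: the acyl-CoA synthetases (acs), carnitine palmitoyltransferases (cpt), acyl-CoA dehydrogenases (acdh), acyl-CoA oxidases (acox), enoyl-CoA hydratases (ech), hacd-1 and kat-1, together with maoc-1, dhs-28 and daf-22. The gene acs-1 was left out. Of the 62 symbols that fit, 61 had at least 10 counts in at least 6 of the 24 libraries. The excluded gene, acs-23, reached 10 counts in 1 library, and acs-9, the member nearest to the limit, reached it in 15. All 61 were among the 14865 genes tested, of 46778 genes in the count table.

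Whole young adults grown at 20°C were pooled, and 6 biological replicates of 4 genotypes were sequenced: unc-1(vlt10), nhr-1(vlt16), the double mutant unc-1(vlt10); nhr-1(vlt16), and 40Q. All of them, 40Q included, carry 40Q::YFP, a stretch of 40 glutamines fused to a yellow fluorescent protein and driven in body wall muscle by the unc-54 promoter. UNC-1 is a stomatin, and vlt10 is a premature stop found by chemical mutagenesis. NHR-1 is a nuclear hormone receptor, and vlt16 is a stop engineered by CRISPR. Each genotype is represented by a single strain, so allele and strain cannot be told apart. The transgene and both genes are on chromosome X. The labels call the replicates biological but do not say how they were separated. The p-values therefore come from setting genotype differences against the spread between these pooled samples. The 40Q libraries are labelled with the letter A and those of all mutants with R. Whether 40Q was handled apart is not said, so such handling and a shift shared by the mutants cannot be told apart.

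A fatty acid is first joined to coenzyme A by an acyl-CoA synthetase. Carnitine palmitoyltransferases then carry the long acyl chain into mitochondria, where an acyl-CoA dehydrogenase, an enoyl-CoA hydratase, a 3-hydroxyacyl-CoA dehydrogenase and a thiolase remove the chain's end as acetyl-CoA, round after round. Peroxisomes run the same cycle with an acyl-CoA oxidase in place of the dehydrogenase. In C. elegans the peroxisomal enzymes MAOC-1, DHS-28 and DAF-22 also shorten the side chains of ascarosides, the dauer pheromones. Some members serve other routes, such as acdh-1 and ech-6, which act in the propionate shunt that the worm uses when vitamin B12 is low. Intestine and hypodermis are the main fat-storing tissues.

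Levels are given as CPM, each library's counts scaled to the same total after weighting by the trimmed mean of M values (TMM). Differences were tested with the quasi-likelihood F-test of edgeR, and its p-values were adjusted over all 14865 genes (Benjamini-Hochberg). A gene is said to have risen or fallen when its adjusted p was below 0.05, and it is called changed when the fold change was also above 2. Library totals were 19098458 to 30467364 counted reads, with the double mutants deepest (26646628 to 30467364). The targeted genes followed the labels. The level of unc-1 was at 1.09 ± 0.267 CPM in unc-1(vlt10), and at 0.903 ± 0.0790 CPM in double mutants, against 6.36 ± 0.856 CPM in nhr-1(vlt16), and at 8.13 ± 1.28 CPM in 40Q (SD, n = 6 each). The level of nhr-1 was at 14.8 ± 1.82 CPM in nhr-1(vlt16), and at 14.3 ± 1.82 CPM in double mutants, against 25.6 ± 2.70 CPM in unc-1(vlt10), and at 28.1 ± 1.90 CPM in 40Q.

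The sums of most lists of cell type markers moved with the genotypes and stand beside the results here. The summed level of the 6 intestinal markers was at 638 to 702 CPM in unc-1(vlt10), 762 to 803 CPM in nhr-1(vlt16), and at 780 to 965 CPM in double mutants, against 929 to 1103 CPM in 40Q. That of the 5 hypodermal markers was at 1183 to 1243 CPM in unc-1(vlt10), 1506 to 1656 CPM in nhr-1(vlt16), and at 1476 to 1884 CPM in double mutants, against 1558 to 1851 CPM in 40Q. The intestinal and hypodermal sums were thus lowest in unc-1(vlt10), with no overlap with the other genotypes. The sum of 5 body wall muscle markers was lower in all 3 mutants (2478 to 2798, 2609 to 2851 and 2496 to 3222 CPM for the unc-1(vlt10), the nhr-1(vlt16) and the double mutant libraries) than in 40Q (3238 to 3795 CPM). The 5 neuronal markers summed to 390 to 407, 332 to 346 and 313 to 345 CPM in the mutants in the same order, and to 352 to 395 CPM in 40Q. Sperm markers were lowest in nhr-1(vlt16), at 16.5 to 19.6 CPM for 7 genes, against 27.6 to 36.4 CPM in the others. The 3 vitellogenin genes summed to 29707 to 33798, 35101 to 40287 and 29295 to 39079 CPM in the mutants in this order, against 40115 to 43958 CPM in 40Q. The 5 germline markers summed to 2178 to 2361, 2287 to 2607 and 2241 to 2476 CPM in the mutants in this order. In 40Q they summed to 2217 to 2517 CPM, and the ranges of all genotypes overlapped. The 5 oocyte markers summed to 3310 to 3455, 3441 to 3900 and 3078 to 3335 CPM in the mutants, against 3055 to 3381 CPM in 40Q. No marker was at 0 in any genotype. In these bulk libraries fewer cells of a type and less RNA per cell cannot be told apart, and the part of tissue make-up in the results was not tested.

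The 61 members together made up 0.708 to 0.748% of a library's counts in unc-1(vlt10), between 0.688 and 0.715% in nhr-1(vlt16), between 0.672 and 0.695% in double mutants, and 0.692 to 0.724% in 40Q. Levels between genes are compared on the authors' FPKM, which are scaled by gene length. The highest was acdh-1, the acyl-CoA dehydrogenase of the propionate shunt, with a mean of 765 FPKM over all 24 libraries. It was followed by ech-6, the hydratase of the same shunt, at 396 FPKM. In all, 12 members were at 100 FPKM or above, 23 between 10 and 100, 21 between 1 and 10 and 5 below 1 FPKM. The thiolase kat-1 was at 210 FPKM and ech-1.2, one of 2 worm genes like the alpha subunit of the mitochondrial trifunctional protein, at 213 FPKM. Among the synthetases acs-19, an acetyl-CoA synthetase by homology, and acs-13 were near each other at 224 and 223 FPKM, and among the palmitoyltransferases cpt-1, the homolog of the enzyme of the outer mitochondrial membrane, was at 161 FPKM and cpt-2 at 82.8 FPKM. The acyl-CoA oxidases were expressed at a lower level, with acox-1.5 at 24.3 FPKM and acox-1.1 at 19.7 FPKM. The summed level of the members was at 4121 ± 88.6 FPKM in unc-1(vlt10), 4132 ± 79.8 FPKM in nhr-1(vlt16), and at 3985 ± 77.6 FPKM in double mutants, against 4183 ± 82.4 FPKM in 40Q (SD, n = 6 libraries each).

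**Figure D1:**
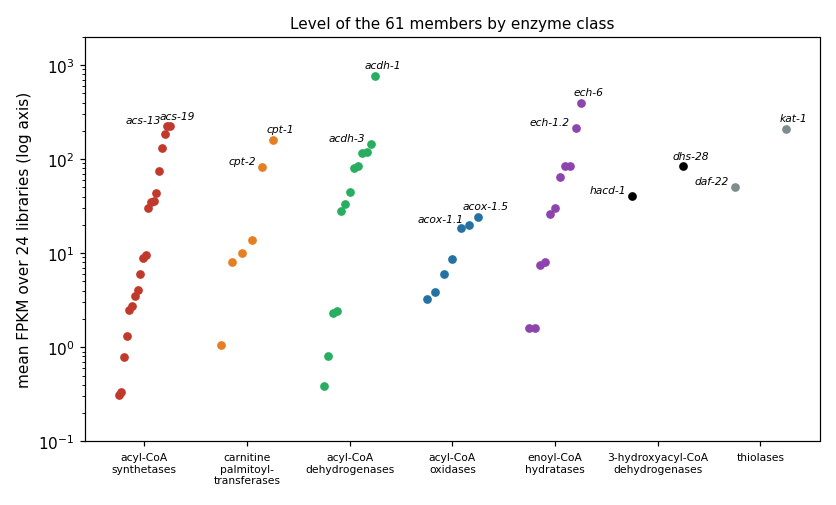
Mean FPKM of each of the 61 members over the 24 libraries, on a log axis, by enzyme class. Each point is 1 gene, and the 2 highest genes of each class are named; acdh-1 (765 FPKM) and ech-6 (396 FPKM) stand highest.

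The first comparison asked which steps changed when unc-1 was lost. In unc-1(vlt10), 16 members rose and 27 fell against 40Q, together 43 of 61, where 47.8% of all genes tested passed the same threshold (25.1% of all genes rose and 22.6% fell). This split depends on the scaling: scaled by total counts without TMM, 22 rose and 22 fell. Past 2-fold, 2 members were higher and 3 lower, against 2.68% of all genes called higher and 3.26% called lower (5.95% together). The 2 were acs-2 and cpt-3, and the 3 were hacd-1, cpt-5 and acox-1.5. Of the 20 acyl-CoA synthetases 8 rose and 5 fell, and of the 13 acyl-CoA dehydrogenases 4 rose and 4 fell. Of the 7 acyl-CoA oxidases 6 fell and none rose, and of the 11 enoyl-CoA hydratases 7 fell and 2 rose. Both 3-hydroxyacyl-CoA dehydrogenases and both thiolases fell. The median log2 fold change was -0.09 over the members and 0.02 over all genes tested.

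**Figure D2:**
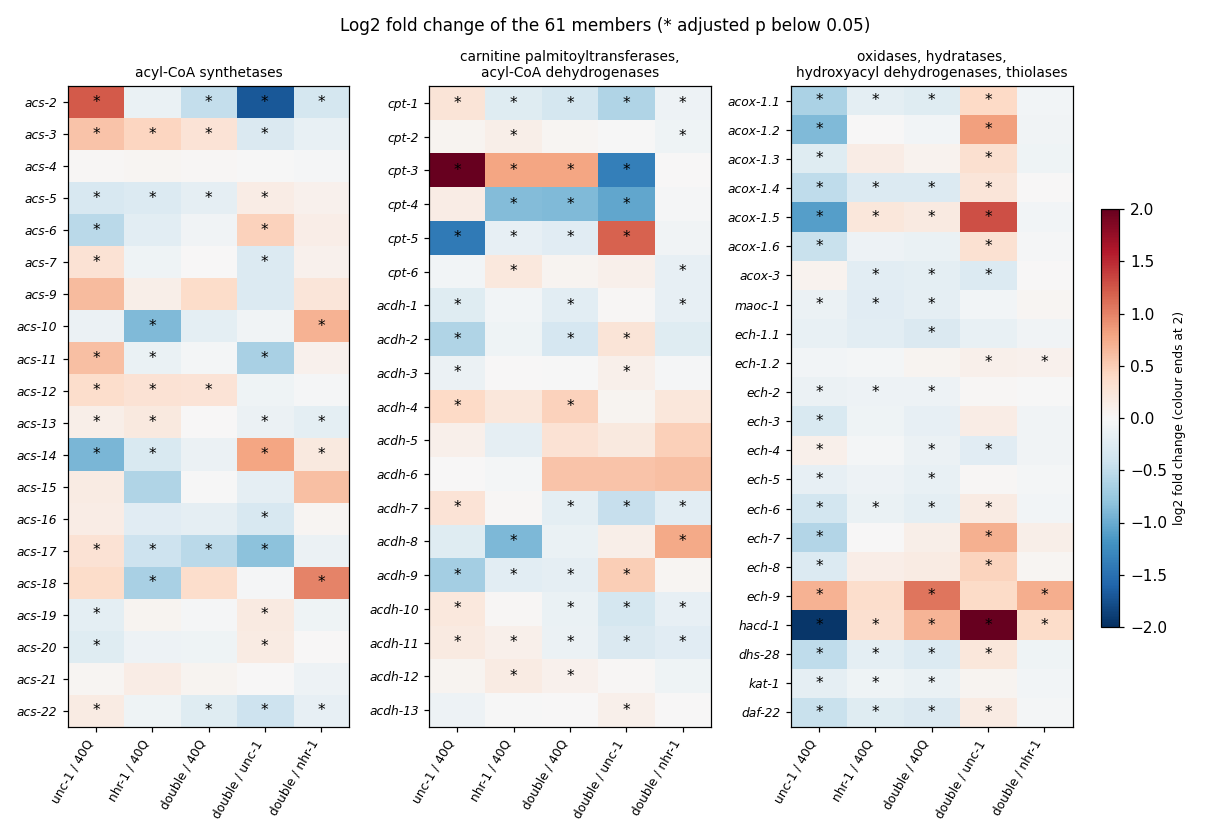
Log2 fold change of the 61 members in 5 comparisons, with the numerator genotype first in each column label; stars mark an adjusted p below 0.05 in edgeR's test. The oxidases other than acox-3, dhs-28 and daf-22 are blue in the first column, red in the fourth and pale in the fifth.

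The second comparison took nhr-1(vlt16) against 40Q. Here 10 members rose and 20 fell, where 42.5% of all genes passed. No member was called past 2-fold in edgeR's test, and none was with an unadjusted p below 0.05 and the same fold or in DESeq2, against 2.7% of all genes called (1.37% higher and 1.33% lower). The largest differences were those of acdh-8 (log2 fold change -0.89), acs-10 (-0.88) and cpt-4 (-0.87). The third comparison took the double mutant against 40Q, and 8 members rose and 25 fell (32.2% of all genes passed). With total counts alone the split was 13 and 20. Only ech-9 was called, as higher, where 2.02% of all genes were called and 1.29% were called higher. These 3 comparisons share the 40Q libraries.

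The fourth comparison added the nhr-1 allele to unc-1(vlt10). In double mutants against unc-1(vlt10), 23 members rose and 16 fell, where 43.3% of all genes passed, and 3 were called higher and 3 lower, against 3.59% of all genes called higher and 2.41% called lower (6% together). These were hacd-1, acox-1.5 and cpt-5 (higher) and acs-2, cpt-3 and cpt-4 (lower). This comparison shares the unc-1(vlt10) libraries with the first. In double mutants against nhr-1(vlt16), which asks for the effect of the unc-1 allele where nhr-1 is also mutated, 7 members rose and 10 fell, where 9.47% of all genes rose and 9.54% fell (19% passed). With total counts alone, 8 rose and 7 fell. None was called in edgeR's test, none with an unadjusted p below 0.05 and the same fold, and none in DESeq2, against 0.888% of all genes called (0.673% higher), but acs-18 was at the limit with a log2 fold change of 0.996.

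The effect of the unc-1 allele was then compared between animals with and without the nhr-1 allele, as an interaction: positive values mean that the effect was more positive in animals that carry vlt16. In this test 25 members passed with a positive and 15 with a negative difference, 40 of 61, where 47.7% of all genes passed. Past 2-fold there were 7 members against 8.84% of all genes, 5 of them positive (5.44% of all genes) and 2 negative (3.4%). The difference was positive for hacd-1 (log2 2.30 ± 0.13 SE), cpt-5 (1.35 ± 0.09), acs-14 (1.098 ± 0.07), acox-1.5 (1.06 ± 0.08) and acdh-8 (1.01 ± 0.17). It was negative for cpt-3 (-2.15 ± 0.26) and acs-2 (-1.57 ± 0.09). Of these 7, acdh-8 had the largest adjusted p, 1.1e-05, and it fell to between 0.985 and 0.999 without replicate 1 or 4 of 40Q, replicate 1 of unc-1(vlt10), replicate 6 of nhr-1(vlt16) or replicate 5 of the double mutants. Across the 61 members, the 2 effects of the unc-1 allele, measured in libraries that are not shared, had a Pearson's r of 0.0122 and a Spearman's rho of -0.0401, and the sign was the same in 31 of 61 genes (50.8%, against 40.1% of all genes, whose r was -0.0751). This correlation is across genes, which are not independent replicates.

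**Figure D3:**
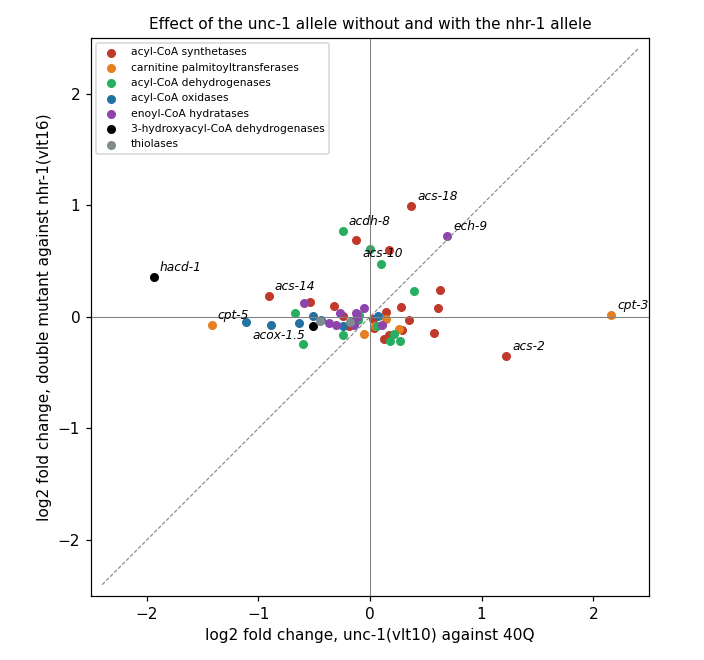
Effect of the unc-1 allele on each of the 61 members without the nhr-1 allele (x axis, unc-1(vlt10) against 40Q) and with it (y axis, double mutant against nhr-1(vlt16)), both as log2 fold changes, with a dashed line where they are equal. The genes hacd-1, cpt-5, acox-1.5, acs-2 and cpt-3 lie far from 0 on the x axis (-1.94, -1.42, -1.11, 1.22 and 2.16) and closer to 0 on the y axis (0.36, -0.07, -0.05, -0.35 and 0.01).

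Fatty acid activation opened with the clearest rise. For acs-2 (chromosome V, 15567394 to 15569897, WBcel235), a mitochondrial acyl-CoA synthetase that fasting induces through NHR-49, the lowest, median and highest library were at 455, 525 and 550 CPM in unc-1(vlt10), at 176, 195 and 228 CPM in nhr-1(vlt16) and at 132, 158 and 176 CPM in double mutants, against 194, 222 and 240 CPM in 40Q. Every unc-1(vlt10) library lay above the other 18 and no double mutant library reached any 40Q library. It had a log2 fold change of 1.22 ± 0.07 (SE) in unc-1(vlt10) against 40Q (edgeR, adjusted p = 3.4e-16) and -1.70 ± 0.07 in double mutants against unc-1(vlt10) (adjusted p = 1.1e-19). Against 40Q, double mutants were lower by 0.48 on the log2 scale (adjusted p = 1.2e-06). In nhr-1(vlt16) the value was -0.13 with an adjusted p of 0.12.

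Some other synthetases were also highest in unc-1(vlt10), by less. For acs-11 the libraries were at 164 to 178 CPM in unc-1(vlt10), with 99.2 to 107 CPM in nhr-1(vlt16), 96.8 to 113.9 CPM in double mutants and 101 to 117 CPM in 40Q. Only the unc-1(vlt10) libraries stood apart, by a log2 fold change of 0.61 ± 0.04 against 40Q (edgeR, adjusted p = 1.8e-14). The X-linked acs-17 separated the genotypes by the nhr-1 allele. Its libraries were at 58.3 to 74.4 CPM in nhr-1(vlt16), and at 54.3 to 68.2 CPM in double mutants, all below the 12 libraries without vlt16, at 104 to 117 CPM in unc-1(vlt10), and at 78.9 to 96.1 CPM in 40Q. It had a log2 fold change of -0.42 in nhr-1(vlt16) against 40Q and -0.82 in double mutants against unc-1(vlt10) (edgeR, adjusted p = 1.5e-06 and 1.8e-13).

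Other synthetases went the other way in unc-1(vlt10). The gene acs-14 was at 47.8 to 54.4 CPM (median 50.6) in unc-1(vlt10), 73.7 to 80.5 CPM (77.8) in nhr-1(vlt16), and at 80.4 to 97.6 CPM (87.5) in double mutants, against 84.2 to 108 CPM (96.3) in 40Q. All unc-1(vlt10) libraries were below the rest, and double mutants and 40Q overlapped. Its log2 fold change was -0.91 ± 0.05 in unc-1(vlt10) and -0.31 ± 0.05 in nhr-1(vlt16), both against 40Q, and -0.12 ± 0.05 in double mutants against 40Q (edgeR, adjusted p = 4e-15, 2.1e-05 and 0.071). For acs-6, at a mean of 5.07 ± 0.645 CPM in unc-1(vlt10), and at 7.31 ± 0.480 CPM in 40Q (SD, n = 6 each), the log2 fold change was -0.53 ± 0.10 (edgeR, adjusted p = 6e-05). The abundant acs-19 fell by 0.19 on the log2 scale in unc-1(vlt10) against 40Q (adjusted p = 7.9e-06).

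The gene acs-3, whose loss is known to raise fat uptake in the worm, was at 9.44 to 10.9 CPM in unc-1(vlt10), 8.16 to 10.3 CPM in nhr-1(vlt16), and at 7.03 to 9.90 CPM in double mutants, against 6.43 to 7.59 CPM in 40Q. It rose in all 3 mutants, by log2 0.57, 0.42 and 0.28 (edgeR, adjusted p = 1.3e-06, 0.00021 and 0.011). The rise in double mutants did not pass without their replicate 2 (0.20, adjusted p = 0.067) or 6 (0.22, adjusted p = 0.056). The gene acs-12 was the only member with all 40Q libraries below the other 18 (1.06% of all genes have this pattern). It was at 18.03 to 20.2 CPM in unc-1(vlt10), 16.2 to 21.6 CPM in nhr-1(vlt16), and at 15.5 to 19.4 CPM in double mutants, against 14.3 to 15.4 CPM in 40Q. The gene acs-18 was low in nhr-1(vlt16): 0.818 to 1.15 CPM there and 1.35 to 2.63 CPM in double mutants, against 1.79 to 2.44 CPM in unc-1(vlt10), and at 0.999 to 2.20 CPM in 40Q. No double mutant library overlapped with nhr-1(vlt16), and the log2 fold change between them was 0.996 ± 0.17 (edgeR, adjusted p = 0.0001). At about the same level, acs-10 was at 1.06 to 2.08 CPM in nhr-1(vlt16), and at 1.95 to 3.79 CPM in 40Q, a log2 fold change of -0.88 ± 0.19 (adjusted p = 0.00045). The abundant acs-13 rose by log2 0.20 in nhr-1(vlt16) against 40Q (adjusted p = 0.00041).

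The carnitine palmitoyltransferases differed most among themselves. The abundant cpt-1 (chromosome II) rose in unc-1(vlt10) and fell with the nhr-1 allele. The lowest, median and highest library were at 548, 561 and 590 CPM in unc-1(vlt10), at 364, 408 and 415 CPM in nhr-1(vlt16) and at 353, 370 and 389 CPM in double mutants, against 442, 475 and 499 CPM in 40Q. Hence the 12 libraries with vlt16 were all below 40Q, and 40Q was all below unc-1(vlt10). It had a log2 fold change of 0.26 in unc-1(vlt10), -0.24 in nhr-1(vlt16) and -0.34 in double mutants against 40Q, each ± 0.03 (SE; edgeR, adjusted p = 9e-08, 1.7e-06 and 2.1e-09). In contrast cpt-2, the inner membrane homolog, was at 158 to 173 CPM in unc-1(vlt10), 166 to 180 CPM in nhr-1(vlt16), and at 159 to 166 CPM in double mutants, against 152 to 165 CPM in 40Q, so that its largest difference from 40Q was a log2 fold change of 0.12 in nhr-1(vlt16) (adjusted p = 0.0017).

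The less abundant homologs had larger changes. For cpt-5 (chromosome V, 13873195 to 13875888) the lowest, median and highest library were at 8.34, 8.90 and 9.70 CPM in unc-1(vlt10), at 19.5, 21.6 and 22.7 CPM in nhr-1(vlt16), and at 17.8, 20.3 and 23.6 CPM in double mutants, against 22.4, 23.9 and 25.8 CPM in 40Q. Libraries of unc-1(vlt10) stood alone, below all others. The log2 fold change was -1.42 ± 0.07 in unc-1(vlt10) against 40Q and 1.19 ± 0.07 in double mutants against unc-1(vlt10) (edgeR, adjusted p = 1.7e-17 and 9.2e-16). Double mutants and nhr-1(vlt16) differed by -0.07 ± 0.06 (adjusted p = 0.45).

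The gene cpt-3 (chromosome III, 2082819 to 2088314) went the opposite way at a low level. It was at 3.32, 4.86 and 5.51 CPM in unc-1(vlt10), at 1.15, 1.72 and 2.44 CPM in nhr-1(vlt16), and at 1.35, 1.84 and 2.33 CPM in double mutants, against 0.727, 0.992 and 1.42 CPM in 40Q. The unc-1(vlt10) libraries were above the other 18, while the ranges of nhr-1(vlt16) and of double mutants overlapped with 40Q. It rose in all 3 mutants against 40Q, with log2 fold changes of 2.16 ± 0.18, 0.78 ± 0.20 and 0.80 ± 0.20 (edgeR, adjusted p = 1.6e-11, 0.0025 and 0.0022). For cpt-4 (chromosome V, 5023706 to 5027723) the libraries separated by the nhr-1 allele: 20.6 to 23.3 CPM in nhr-1(vlt16), and at 19.1 to 23.2 CPM in double mutants, against 39.6 to 49.8 CPM in unc-1(vlt10), and at 31.7 to 45.1 CPM in 40Q. The log2 fold change was -0.87 ± 0.07 in nhr-1(vlt16) and -0.89 ± 0.06 in double mutants against 40Q, and -1.03 ± 0.06 in double mutants against unc-1(vlt10) (edgeR, adjusted p = 1.3e-11, 2.3e-12 and 9.2e-15). Without replicate 6 of unc-1(vlt10) the last value was -0.99, just under 2-fold. Its interaction term was -0.17 ± 0.09 (adjusted p = 0.13). Together with acs-17 and cpt-1, cpt-4 was 1 of 3 members whose 12 libraries with vlt16 all lay below the 12 without, a pattern of 1.37% of all genes.

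**Figure D4:**
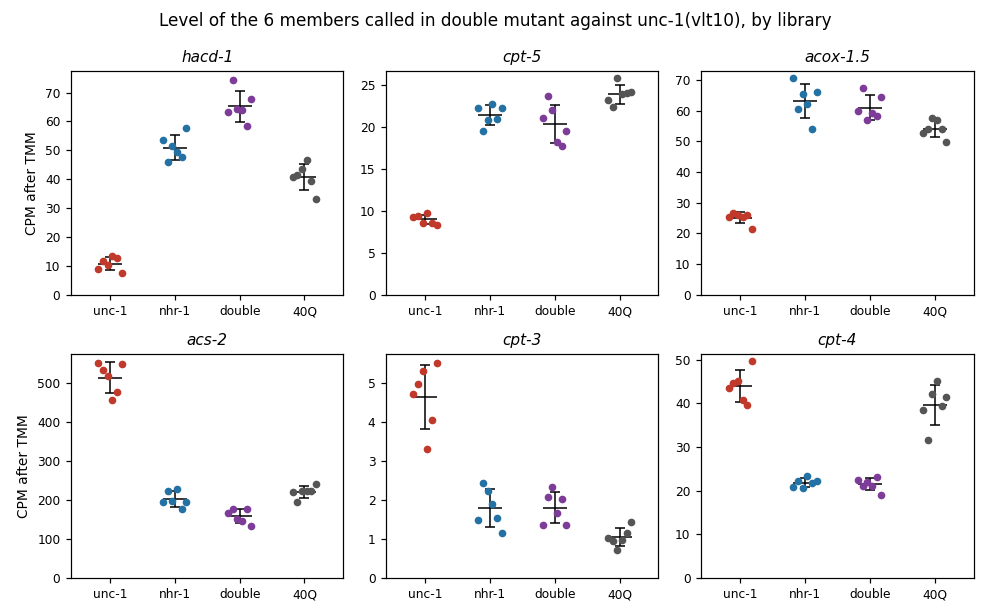
CPM after TMM of the 6 members called in double mutants against unc-1(vlt10), with 1 point per library and the mean and SD of 6 libraries per genotype. In hacd-1, cpt-5 and acox-1.5 the unc-1(vlt10) libraries are lowest, in acs-2 and cpt-3 highest, and in cpt-4 both genotypes with the nhr-1 allele are low.

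The mitochondrial acyl-CoA dehydrogenases changed less. The most abundant member, acdh-1, was at 803 to 864 CPM in unc-1(vlt10), 898 to 999 CPM in nhr-1(vlt16), and at 820 to 906 CPM in double mutants, against 957 to 1059 CPM in 40Q. The unc-1(vlt10) and double mutant libraries were all below 40Q, whereas nhr-1(vlt16) overlapped with it. It fell by 0.24 and 0.21 on the log2 scale in unc-1(vlt10) and in double mutants against 40Q (edgeR, adjusted p = 1.4e-07 and 4.6e-06). Its relative acdh-2 was at a median of 30.7 CPM in unc-1(vlt10), 47.4 CPM in nhr-1(vlt16), and at 37.8 CPM in double mutants, against 47.2 CPM in 40Q, and fell by 0.60 on the log2 scale in unc-1(vlt10) (adjusted p = 1.1e-05). The largest change of the class in unc-1(vlt10) was that of acdh-9, at 77.9 to 81.5 CPM in unc-1(vlt10), 104 to 113.9 CPM in nhr-1(vlt16), and at 107 to 122 CPM in double mutants, against 118 to 140 CPM in 40Q. The unc-1(vlt10) libraries lay below all others, and those of nhr-1(vlt16) also below 40Q. In unc-1(vlt10) it had a log2 fold change of -0.67 ± 0.04 against 40Q (edgeR, adjusted p = 3.3e-15).

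The neighbours acdh-7 and acdh-10, which lie side by side on chromosome X and are relatives of the medium-chain enzyme, were higher in unc-1(vlt10) and lower in double mutants. For acdh-7 the libraries were at 120 to 140 CPM in unc-1(vlt10), 108 to 122 CPM in nhr-1(vlt16), and at 89.6 to 105 CPM in double mutants, against 104 to 115.1 CPM in 40Q. Its log2 fold change was 0.27 in unc-1(vlt10) and -0.19 in double mutants, both against 40Q (edgeR, adjusted p = 2.9e-06 and 0.00068). For acdh-10, which was named after its values were seen, the values were 0.21 and -0.14 (adjusted p = 3.7e-06 and 0.002). The gene acdh-11, whose product limits the fat desaturase FAT-7 in the heat, rose by log2 0.17 in unc-1(vlt10) and fell by 0.12 in double mutants against 40Q (adjusted p = 0.00012 and 0.0084). The weakly expressed acdh-8 was the only member with all nhr-1(vlt16) libraries below the other 18 (0.915% of all genes have this pattern), at 1.76 to 2.58 CPM there and 3.21 to 3.99 CPM in double mutants, against 2.75 to 4.18 CPM in unc-1(vlt10), and at 2.94 to 4.51 CPM in 40Q. It fell by 0.89 on the log2 scale in nhr-1(vlt16) against 40Q (adjusted p = 1.2e-06), and double mutants were 0.77 higher than nhr-1(vlt16) (adjusted p = 3.2e-05). The gene acdh-4 rose by log2 0.39 in unc-1(vlt10), and by 0.46 in double mutants (adjusted p = 0.0061 and 0.0026), and acdh-3, at 190 to 200 CPM in unc-1(vlt10), and at 197 to 219 CPM in 40Q, fell by 0.11 (adjusted p = 0.0025).

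Most genes of the peroxisomal enzymes were lower in unc-1(vlt10). Of the 10 genes for the oxidases, maoc-1, dhs-28 and daf-22, 9 fell in unc-1(vlt10) against 40Q (22.6% of all genes fell), and acox-3 did not pass the test (log2 0.07 ± 0.05) and is named as the exception, after its values were seen. The fall of maoc-1 (-0.12, adjusted p = 0.0049) did not pass when scaled by total counts (-0.06, adjusted p = 0.15). In double mutants against unc-1(vlt10), 8 rose (21.6% of all genes rose), acox-3 fell and maoc-1 did not pass (-0.06 ± 0.04). In double mutants against nhr-1(vlt16), none of the 10 passed in edgeR or in DESeq2 (19% of all genes passed in edgeR), 1 had an unadjusted p below 0.05, and the log2 fold changes ranged between -0.08 and 0.04. Without replicate 2 of the double mutants dhs-28 did pass in this comparison (log2 -0.11, edgeR, adjusted p = 0.035). The interaction was positive for 8 of 10, against 23.6% of all genes. The median log2 fold change of the 10 was -0.48 in unc-1(vlt10), -0.19 in nhr-1(vlt16) and -0.19 in double mutants, each against 40Q. The intestinal markers moved with these values: the median intestinal sum was at 675 CPM in unc-1(vlt10), 793 CPM in nhr-1(vlt16), and at 857 CPM in double mutants, against 1049 CPM in 40Q. Their part in the fall was not tested.

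Among the oxidases acox-1.5 (chromosome III, 9586618 to 9592192) changed most. Its lowest, median and highest library were at 21.5, 25.8 and 26.6 CPM in unc-1(vlt10), at 54.03, 63.9 and 70.6 CPM in nhr-1(vlt16), and at 56.8, 59.6 and 67.4 CPM in double mutants, against 49.8, 53.9 and 57.6 CPM in 40Q. The unc-1(vlt10) libraries overlapped with none of the others. The log2 fold change was -1.11 ± 0.06 in unc-1(vlt10) against 40Q and 1.28 ± 0.06 in double mutants against unc-1(vlt10) (edgeR, adjusted p = 2.4e-16 and 4.1e-18). Against 40Q the gene rose by log2 0.22 in nhr-1(vlt16), and by 0.17 in double mutants (adjusted p = 0.0015 and 0.013). The rise in double mutants did not pass without replicate 1 or 6 of 40Q (adjusted p = 0.057 and 0.077) or replicate 2 or 6 of the double mutants (0.090 and 0.069).

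The genes acox-1.1, acox-1.2, acox-1.3 and acox-1.4 lie side by side on the plus strand of chromosome I, from 12938555 to 12954003, with gaps of 52, 343 and 34 bp. For acox-1.1, the main oxidase of ascaroside synthesis, the libraries were at 29.6 to 33.4 CPM in unc-1(vlt10), 39.7 to 45.4 CPM in nhr-1(vlt16), and at 38.7 to 44.8 CPM in double mutants, against 44.8 to 51.7 CPM in 40Q. It fell by 0.64 on the log2 scale in unc-1(vlt10), by 0.19 in nhr-1(vlt16) and by 0.25 in double mutants (edgeR, adjusted p = 4.9e-13, 0.00097 and 8.3e-05). For acox-1.2 the values were 3.85 to 4.30 CPM in unc-1(vlt10), 6.13 to 8.17 CPM in nhr-1(vlt16), and at 6.34 to 8.68 CPM in double mutants, against 6.84 to 8.81 CPM in 40Q, and only unc-1(vlt10) fell, by 0.88 (adjusted p = 7.8e-10). The next gene, acox-1.4, fell by 0.51 in unc-1(vlt10) and by 0.27 in both nhr-1(vlt16) and double mutants (adjusted p = 3.8e-08, 0.0007 and 0.00094). Of the 4, acox-1.3 changed least in unc-1(vlt10), by log2 -0.24 (adjusted p = 0.011), and it was named after its values were seen. These oxidases are close relatives, so reads could be split between copies in counting. The X-linked acox-1.6 fell by 0.44 in unc-1(vlt10) (adjusted p = 0.00019).

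The enzymes downstream of the oxidases had one more feature in common: all 40Q libraries lay above the other 18 in maoc-1, dhs-28 and daf-22, as in the mitochondrial thiolase kat-1. These 4 members are 6.56% of the 61, against 1.95% of all genes with this pattern. Whether the pattern holds under other scalings was not tested. A separate handling of 40Q, whose libraries are labelled apart, cannot be told apart from the alleles here. The hydratase gene maoc-1 was at 66.1 to 70.4 CPM in unc-1(vlt10), 62.1 to 65.8 CPM in nhr-1(vlt16), and at 60.5 to 69.7 CPM in double mutants, against 70.4 to 81.0 CPM in 40Q. To the digits printed, the highest unc-1(vlt10) library and the lowest 40Q library of maoc-1 are equal, so its separation is slight. Its exons overlap with a gene on the other strand over 9.88% of their length. The dehydrogenase gene dhs-28 was at 95.0 to 101 CPM in unc-1(vlt10), 115.1 to 129 CPM in nhr-1(vlt16), and at 105 to 128 CPM in double mutants, against 134 to 145 CPM in 40Q. It fell by 0.51, 0.19 and 0.28 on the log2 scale in these mutants (edgeR, adjusted p = 8.8e-13, 0.00012 and 1.1e-06). The thiolase gene daf-22 was at 56.8 to 59.9 CPM in unc-1(vlt10), 65.2 to 70.7 CPM in nhr-1(vlt16), and at 63.2 to 72.9 CPM in double mutants, against 74.9 to 84.8 CPM in 40Q, and fell by 0.45, 0.25 and 0.28 (adjusted p = 2.4e-11, 7.4e-06 and 1e-06).

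**Figure D5:**
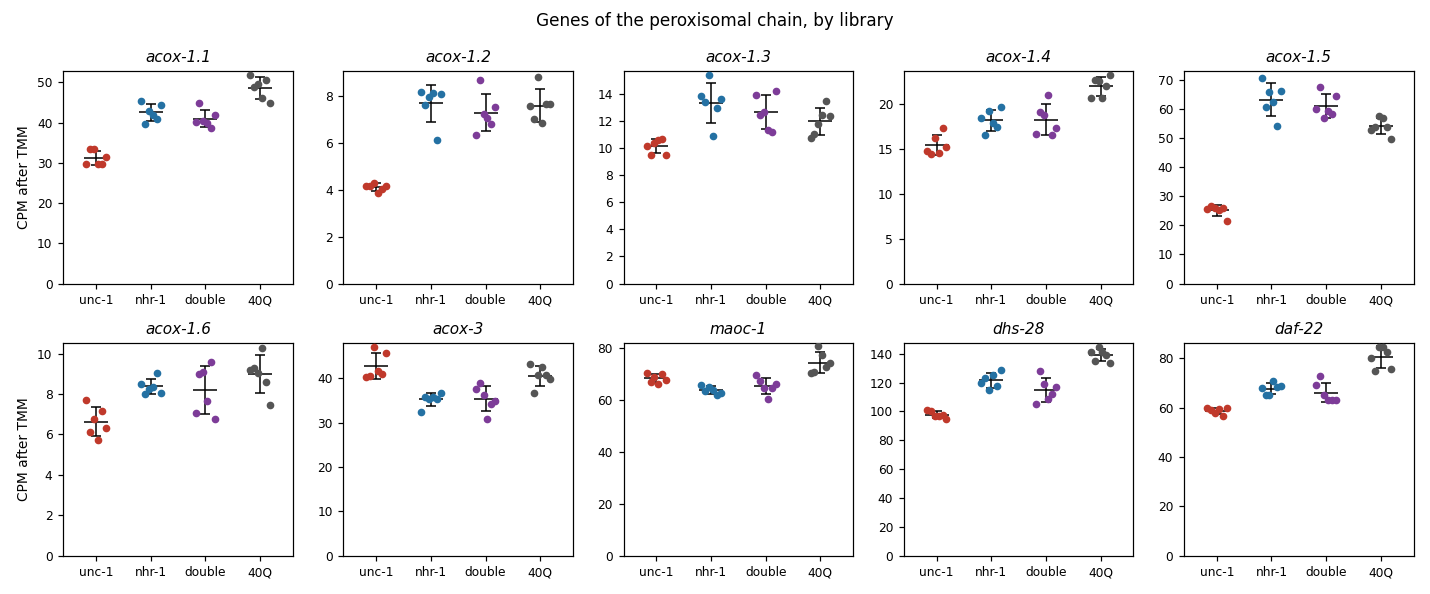
CPM after TMM of the 7 acyl-CoA oxidase genes, maoc-1, dhs-28 and daf-22, with 1 point per library and the mean and SD of 6 libraries per genotype. The mean of the unc-1(vlt10) libraries is lowest in most panels, with acox-3 and maoc-1 the exceptions; acox-3 was at 40.4 to 47.2 CPM in unc-1(vlt10), and at 36.7 to 43.2 CPM in 40Q.

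Of the other enoyl-CoA hydratases, ech-7 was at 38.4 to 52.0 CPM in unc-1(vlt10), 68.4 to 74.4 CPM in nhr-1(vlt16), and at 66.2 to 81.6 CPM in double mutants, against 63.7 to 74.1 CPM in 40Q. Its unc-1(vlt10) libraries were below all others, with a log2 fold change of -0.59 ± 0.06 against 40Q (edgeR, adjusted p = 1.3e-10). The shunt enzyme ech-6 was at 377 to 410 CPM in unc-1(vlt10), 441 to 485 CPM in nhr-1(vlt16), and at 434 to 480 CPM in double mutants, against 469 to 557 CPM in 40Q, and fell by 0.37, 0.14 and 0.20 (adjusted p = 5.5e-10, 0.0028 and 9.7e-05). The trifunctional protein homolog ech-1.2 was among the steadiest members, at 521 to 556 CPM in unc-1(vlt10), 541 to 555 CPM in nhr-1(vlt16), and at 573 to 598 CPM in double mutants, against 539 to 577 CPM in 40Q. It rose by log2 0.10 in double mutants against unc-1(vlt10) (adjusted p = 0.0018). The other homolog, ech-1.1, was expressed at under 5 CPM in every library and had a log2 fold change of -0.29 in double mutants against 40Q (adjusted p = 0.03), which did not pass without replicate 3 or 4 of 40Q or replicate 1, 3 or 5 of the double mutants (adjusted p = 0.050 to 0.062).

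The low-level gene ech-9 had a pattern of its own. It was at 2.22, 2.72 and 4.07 CPM (lowest, median, highest) in unc-1(vlt10), 1.72, 2.24 and 2.71 CPM in nhr-1(vlt16), and at 3.25, 3.54 and 4.80 CPM in double mutants, against 0.894, 1.67 and 2.42 CPM in 40Q. The double mutant libraries lay above all of nhr-1(vlt16) and 40Q. It was the only member called in double mutants against 40Q, with a log2 fold change of 1.07 ± 0.17 (edgeR, adjusted p = 1.5e-05). The value was 0.93 without replicate 2 of 40Q and 0.97 without replicate 6 of the double mutants. It rose by 0.69 ± 0.18 in unc-1(vlt10) against 40Q and by 0.72 ± 0.17 in double mutants against nhr-1(vlt16) (adjusted p = 0.0018 and 0.0022). The interaction was 0.03 ± 0.25 (adjusted p = 0.93).

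In double mutants against unc-1(vlt10), the largest change of all members was in hacd-1 (chromosome V, 1460369 to 1461613). This gene encodes a 3-hydroxyacyl-CoA dehydrogenase by homology. Its lowest, median and highest library were at 7.56, 10.9 and 13.3 CPM in unc-1(vlt10), at 45.8, 50.3 and 57.7 CPM in nhr-1(vlt16), and at 58.3, 64.1 and 74.2 CPM in double mutants, against 33.1, 41.2 and 46.5 CPM in 40Q. The unc-1(vlt10) libraries were below and the double mutant libraries above all others. The second pattern, double mutants on top, was found in 0.484% of all genes. The log2 fold change was -1.94 ± 0.10 in unc-1(vlt10) against 40Q, that is 3.84-fold lower, and 2.62 ± 0.09 in double mutants against unc-1(vlt10), 6.13-fold higher (edgeR, adjusted p = 6.2e-17 and 2.1e-20). Against 40Q it rose by log2 0.32 ± 0.08 in nhr-1(vlt16), and by 0.68 ± 0.08 in double mutants (adjusted p = 0.0026 and 1.1e-07).

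The thiolase kat-1, which closes the mitochondrial cycle, was at 267 to 287 CPM in unc-1(vlt10), 289 to 295 CPM in nhr-1(vlt16), and at 269 to 296 CPM in double mutants, against 306 to 317 CPM in 40Q. All mutant libraries were below 40Q, by small steps: it fell by 0.18, 0.08 and 0.13 on the log2 scale (edgeR, adjusted p = 1.1e-06, 0.013 and 0.00031).

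Over the whole list, all 6 unc-1(vlt10) libraries lay below the other 18 in 13 members, or 21.3%, where 6.64% of all genes have this pattern. Besides those described above as lowest in unc-1(vlt10), these included acs-19, acox-1.3, ech-6, dhs-28 and daf-22. They lay above the other 18 in 8 members, or 13.1%, against 4.89% of all genes: acs-2, acs-11, acs-17, acs-22, cpt-1, cpt-3, acdh-10 and ech-4, of which acs-22 and ech-4 were named after their values were seen. When only total counts set the scaling, a choice made after seeing the data, the counts were 11 and 8, without acs-19 and acox-1.3, and with DESeq2 size factors they were 13 and 7, without ech-4. The only member with all nhr-1(vlt16) libraries above the others was acdh-12 (0.397% of all genes), also named after its values were seen. Within a genotype the libraries varied little, with a median coefficient of variation of 6.20% over the members. The 22 members that were not singled out by size or class ranged from -0.32 to 0.63 on the log2 scale when unc-1(vlt10) was set against 40Q, and 4 of them rose, 7 fell and 11 did not pass.

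Partner genes of the pathway were examined as 5 lists, and in unc-1(vlt10) against 40Q their counts stand beside the 25.1% of all genes that rose and the 22.6% that fell. Genes named from these lists were picked after their values were seen. Of 17 genes for peroxisome biogenesis and transport, 10 fell and 1 rose in unc-1(vlt10) against 40Q, with a median log2 fold change of -0.16. The list was also lower in the other mutants. In nhr-1(vlt16) against 40Q, 8 fell and 2 rose (median -0.20), beside 22% and 20.5% of all genes. In double mutants against 40Q, 9 fell and 1 rose (median -0.11), beside 17.3% and 14.9% of all genes. In double mutants against unc-1(vlt10), 5 rose and 2 fell, beside 21.6% and 21.7% of all genes. The peroxisomal ABC transporter gene pmp-5 was at 73.3 to 82.9 CPM in unc-1(vlt10), 114.2 to 122 CPM in nhr-1(vlt16), and at 96.8 to 119 CPM in double mutants, against 149 to 157 CPM in 40Q, and fell by 0.96 on the log2 scale in unc-1(vlt10) (edgeR, adjusted p = 3e-19). Its relative pmp-1 fell by 0.80 in unc-1(vlt10) and was higher by 0.77 in double mutants set against unc-1(vlt10) (adjusted p = 2.9e-12 and 4.4e-12). Other genes of the list changed less in unc-1(vlt10) against 40Q: pmp-3 fell by 0.09 and pmp-4 did not pass (log2 0.10; edgeR, adjusted p = 0.038 and 0.25). The gene that rose was prx-10, by log2 0.14 (adjusted p = 0.0022). The receptor gene for peroxisomal import, prx-5, fell by 0.39 in unc-1(vlt10), by 0.32 in nhr-1(vlt16) and by 0.41 in double mutants, each against 40Q (adjusted p = 1.1e-05, 0.00028 and 1.1e-05).

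The same shares of all genes (25.1% rose, 22.6% fell, 47.8% together) apply to the next 3 lists. Of 6 acyl-CoA-binding protein genes tested of 7 listed, 3 fell and none rose in unc-1(vlt10) against 40Q. The gene acbp-3 was at 6.22 to 9.66 CPM in unc-1(vlt10), 11.4 to 18.4 CPM in nhr-1(vlt16), and at 12.7 to 16.4 CPM in double mutants, against 13.6 to 15.7 CPM in 40Q (log2 -0.85 ± 0.10 in unc-1(vlt10) against 40Q, edgeR, adjusted p = 1.3e-08). Of 8 other genes of propionate breakdown, 1 rose and 3 fell in unc-1(vlt10), and none changed by 2-fold in any comparison. Of these hphd-1 and alh-8, which act after ech-6 in the shunt, fell by 0.14 and 0.15 (adjusted p = 0.0031 and 0.0041). In the same list hach-1 did not pass (log2 0.06, edgeR, adjusted p = 0.077). The gene that rose was pccb-1, by log2 0.16 (adjusted p = 0.003). Of 10 mitochondrial partners, 1 rose and 5 fell, among them etfa-1, a subunit of the electron acceptor of the dehydrogenases, which fell by 0.16 (adjusted p = 4.9e-06). The genes etfb-1 and let-721 of the same list did not pass (log2 0.03 and 0.04, edgeR, adjusted p = 0.52 and 0.23). The dienoyl-CoA reductase homolog decr-1.1 was called in double mutants against unc-1(vlt10), at 0.372 to 1.22 CPM in unc-1(vlt10), 0.891 to 1.43 CPM in nhr-1(vlt16), and at 1.92 to 2.84 CPM in double mutants, against 1.21 to 3.11 CPM in 40Q (log2 1.43 ± 0.22 in double mutants against unc-1(vlt10), edgeR, adjusted p = 3e-06). It was also past 2-fold in double mutants against nhr-1(vlt16) (log2 1.00 ± 0.21, adjusted p = 0.0011) and in the interaction (1.92 ± 0.32, adjusted p = 1.1e-05).

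Among 10 transcriptional regulators of fat and propionate metabolism, 3 rose and 4 fell in unc-1(vlt10) against 40Q, where 25.1% of all genes rose and 22.6% fell. The fatty acid oxidation regulator nhr-49 fell by 0.08 (adjusted p = 0.032), and its coactivator mdt-15 had a value of -0.03 (adjusted p = 0.52). The receptor gene nhr-68, which with nhr-10 activates the propionate shunt, was at 21.3 to 28.01 CPM in unc-1(vlt10), 35.7 to 43.4 CPM in nhr-1(vlt16), and at 35.2 to 41.9 CPM in double mutants, against 38.7 to 44.8 CPM in 40Q. It fell by 0.69 on the log2 scale in unc-1(vlt10) (edgeR, adjusted p = 1.8e-11), while nhr-10 rose by log2 0.17 (adjusted p = 0.0037). Also in unc-1(vlt10) against 40Q, hlh-30 and sbp-1 rose by log2 0.24 and 0.18 (adjusted p = 0.00011 and 0.0016), and nhr-80 fell by 0.53 (adjusted p = 3.2e-07). The receptor gene nhr-114 was the only one called: 19.7 to 31.4 CPM in unc-1(vlt10), 56.4 to 85.2 CPM in nhr-1(vlt16), and at 48.4 to 71.5 CPM in double mutants, against 45.9 to 61.5 CPM in 40Q. Its log2 fold change was -1.09 ± 0.11 in unc-1(vlt10) against 40Q and 1.19 ± 0.11 in double mutants against unc-1(vlt10) (adjusted p = 6.7e-10 and 5.8e-11), and the unc-1(vlt10) libraries were below all others, as for nhr-68.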

How the data were processed

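RNA from pooled young adults of 4 genotypes (6 biological replicates each) was enriched on oligo(dT) beads and sequenced by Novogene. The authors aligned reads to WBcel235 and counted them per gene. The submitters' processing notes name HISAT2 2.0.5, HTSeq 0.6.1 and DESeq2 1.24.0. The strand setting of the counting is not given in the sources used here, so reads of overlapping genes on opposite strands may not be told apart. The authors deposited raw counts per gene, FPKM per library and 6 tables with their own genotype means, log2 fold changes and p-values, which were not used.

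Libraries were grouped by genotype label. Counts were fitted in R 4.3.3 with edgeR 4.0.16 in 1 model of 24 libraries, with genotype as the only term, TMM, filterByExpr and quasi-likelihood F-tests, adjusted over 14865 genes. The FPKM values served to compare levels between genes. The fit was tested on simulated counts. Alternatives were DESeq2 1.42.0, other scalings and filters, pairwise fits, a replicate block and, chosen after seeing the data, leaving out each library and the TMM reference library. Positions came from Ensembl release 115 (WBcel235). Figures were drawn with matplotlib 3.10.9 in Python 3.11.15. No promoter or protein sequence was analysed here.

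Members and gene lists were chosen with earlier results of these data known. Genes were named by rule: called members (up to 10 in each direction), then those with the largest fold change at an adjusted p below 0.05 (up to 20 for unc-1(vlt10) against 40Q, 10 for each other comparison), the 5 lowest p of the interaction, the 2 highest FPKM of each class, and kat-1, daf-22, dhs-28, maoc-1, acdh-1 and ech-6, in all 39 of 61. All 61 IDs matched the annotation. Of the lists, hadb-1, etfa-1 and etfb-1 were matched by locus.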

Additional observations from a re-analysis of the deposited data

Results flagged for a closer look

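The effect of the unc-1 allele differed between animals with and without the nhr-1 allele by more than 2-fold in 7 members, in the interaction test of edgeR described above. The differences on the log2 scale were 2.30 for hacd-1, 1.35 for cpt-5, 1.098 for acs-14, 1.06 for acox-1.5 and 1.01 for acdh-8, and -1.57 for acs-2 and -2.15 for cpt-3.

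In 12 of 156 sets of 6 values of the named members, 1 library stood far from the other 5, where chance marks about 1 in 20 sets. In unc-1(vlt10), acox-1.5 was at 21.5 CPM in replicate 6. In nhr-1(vlt16), replicate 5 was high for acs-19 (596 CPM) and low for acdh-2 (34.8 CPM) and acox-1.2 (6.13 CPM), and replicate 1 was high for ech-7 (74.4 CPM). In double mutants, replicate 2 was high for ech-1.2 (598 CPM) and ech-6 (480.4 CPM), and replicate 6 for ech-9 (4.80 CPM). In 40Q, replicate 3 was high for acs-3 (7.59 CPM) and acdh-1 (1059 CPM), and replicate 6 was low for acs-19 (494 CPM) and ech-7 (63.7 CPM).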

How the results depend on the processing

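The total numbers of members past each threshold stayed within 1.5 times of the reported ones under the other scalings, filters and fits tried, with 1 exception, but by direction the members that rose in double mutants against 40Q numbered 13 with total counts alone, against 8 in the report. In double mutants against nhr-1(vlt16), where no member was called, 1 was called with total counts alone, with no filter on low counts and with 1 CPM in at least 6 libraries. This is acs-18, which lies at the 2-fold limit and was called in 18 of the 24 fits that left out 1 library. Leaving out each of the 24 libraries in turn gave 5 called members throughout for unc-1(vlt10) against 40Q, 0 to 1 for nhr-1(vlt16) against 40Q, 0 to 1 for double mutants against 40Q, 5 to 6 for double mutants against unc-1(vlt10), 0 to 1 for double mutants against nhr-1(vlt16) and 6 to 7 for the interaction. The members with adjusted p below 0.05 numbered 42 to 45, 29 to 34, 30 to 33, 35 to 40, 14 to 17 and 38 to 44 in the same order. The call of ech-9 was lost without replicate 2 of 40Q or replicate 6 of the double mutants, that of cpt-4 without replicate 6 of unc-1(vlt10), and acs-10 was called in nhr-1(vlt16) without its replicate 4 (-1.02). The interaction of acdh-8 fell below 2-fold in 5 of the 24 cases. TMM scales to 1 reference library that edgeR picks, nhr-1(vlt16) replicate 6 here. None of the 24 fits that left out a library used it. Most used unc-1(vlt10) replicate 3, and the rest unc-1(vlt10) replicate 6 or nhr-1(vlt16) replicate 2. Those fits thus change the scaling as well as the libraries, mostly in the same way. With each of the 24 libraries as that reference, a choice made after seeing the data, 43 to 45, 29 to 31, 32 to 33, 37 to 41, 16 to 17 and 39 to 44 members had an adjusted p below 0.05 in the same order. The calls past 2-fold changed for acs-18 (called with 5 references) and the interaction of acdh-8 (lost with 1). Of 1599 alternative log2 fold changes of named members, 9 changed sign, all near 0. Total counts alone took 12 of 234 past the threshold in the report below it and brought 7 above it, and no filter 8 and 1, while the replicate block did neither. The values that changed sign with total counts alone were ech-1.2 in unc-1(vlt10) against 40Q (0.0094), acs-11, acdh-3 and acs-19 in double mutants against 40Q (0.0026, 0.034 and 0.029) and the interaction of ech-9 (-0.010). The other changes of sign were ech-7 in nhr-1(vlt16) against 40Q without a filter (-0.0011) and in the fit of 2 genotypes (-0.0011), and acox-1.4 in double mutants against nhr-1(vlt16) with DESeq2 size factors (-0.00050) and with DESeq2 (-0.00058). The cause was not tested. Total counts alone moved the median of all genes by 0.06 in unc-1(vlt10) against 40Q. The libraries were not treated as paired by replicate number. Same-numbered deviations correlated between -0.31 and 0.28, and no pair of genotypes had all of them over 0.1. This check cannot show that no pairing exists. For unc-1(vlt10) and 40Q, 4 of 6 were over 0.1 (mean 0.124, against -0.0247 for unlike numbers), and 2 of 6 libraries matched best with their own number. With the replicate block, 44 members had an adjusted p below 0.05 in unc-1(vlt10) against 40Q, 29 in nhr-1(vlt16) against 40Q, 32 in double mutants against 40Q, 39 against unc-1(vlt10), 17 against nhr-1(vlt16) and 40 in the interaction, with the called members unchanged in number. Depth limits members below 1 CPM, such as acs-9, at 3 to 30 counts.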
